A study of Mus musculus with 2 samples.

Results

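The genes described here encode enzymes of fatty acid oxidation and ketogenesis in mouse liver, together with carriers, thioesterases and responsive genes that belong to the same pathway. They are a list of 32 symbols, and a gene was taken when a probe set of the array carried its symbol alone in the platform annotation. This gave 30 genes with 52 probe sets, of 18193 genes named on the array, and Acsl1 and Ucp2 were not analysed here. Liver RNA came from Bglu3 congenic mice and from C57BL/6 apoE-/- control mice, with 1 Affymetrix array for each group. A congenic strain carries a chromosome segment of a donor strain on another strain's background, and Bglu3 is a blood glucose locus on chromosome 1. The labels give C57BL/6 as background and hyperglycemia as disease state for both groups, and both ate chow from weaning at 3 weeks and a Western diet for 12 weeks from the age of 6 weeks. They do not say whether the congenic mice also lack apoE, what the donor strain was, how many animals stand behind an array or whether RNA was pooled. With 1 array per group there was no replicate, no test and no error over animals, so each value below describes these 2 arrays.

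Fatty acids enter the hepatocyte through carriers such as CD36, are activated to acyl-CoA and pass into mitochondria on carnitine. Inside, each turn of the cycle removes a 2-carbon unit through a dehydrogenase, a hydratase, a second dehydrogenase and a thiolase, and the acetyl-CoA that is formed can leave the liver as ketone bodies. Peroxisomes run a parallel cycle on very long, branched and dicarboxylic acids and on bile acid precursors. The nuclear receptor PPAR alpha drives most of these genes in liver during fasting and lipid load.

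Differences are given as log2(intensity + 5) on the congenic array minus the same on the control array, for the brightest probe set of each gene. A gene was called expressed when this probe set reached the median of all probe sets of an array on at least 1 array, which held for all 30 members and for 12613 genes in all. The medians of the arrays were 19.3 (congenic) and 19.7 (control), and intensities were used as deposited. Because probe sets differ in how well they bind, intensities are compared only between the arrays and never between genes. The only measure of error at hand was the disagreement between probe sets of one gene on the same pair of arrays. Its SD around the gene's mean was 0.34 on the log2 scale over 5189 genes with several expressed probe sets, and 0.25 in the brightest 20% of them, a level that 24 of the 30 members reached.

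The whole set differed little between the arrays. The median difference of the 30 members was -0.10, where that of all expressed genes was 0.04 and that of the brightest 20% of expressed genes was 0.02. The members lower in the congenic array at any size numbered 19 of 30 (63.3%), against 43.8% of expressed genes. Decr2 alone was lower by 1.5-fold or more, a size that 5.26% of expressed genes passed in this direction. Fgf21 alone was higher by that much, as were 7.59% of expressed genes, so the members passed this size no more often than other genes. Differences of 23 members lay within 0.25 of 0, the SD of probe sets of bright genes around their gene's mean. The 7 outside it were Decr2, Pex11a, Acads and Eci2 on the lower side and Fgf21, Cpt1a and Acot2 on the higher side. Past 0.34, the SD over all genes with several probe sets, were 2 on the lower side (Decr2 and Pex11a) and the same 3 on the higher side.

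**Figure D1:**
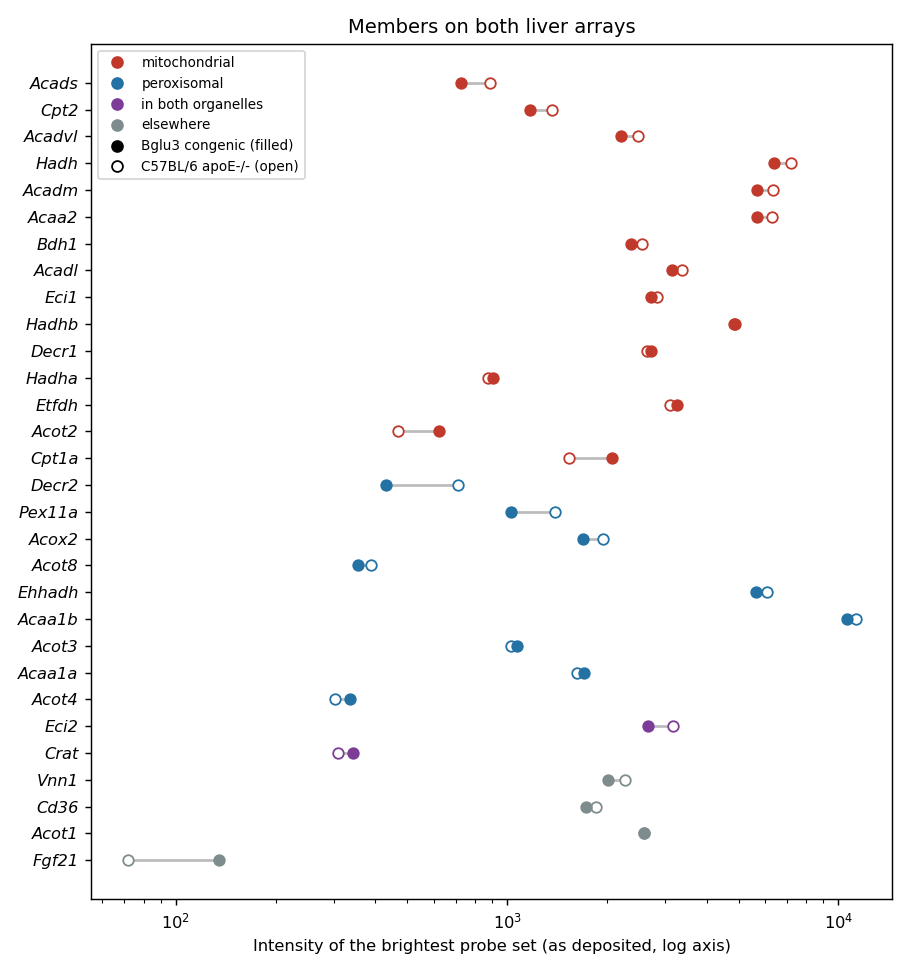
Intensity of the brightest probe set of each member (x axis, log scale, as deposited) on the congenic array (filled) and the control array (open), with colours for the compartment of the protein. Most pairs lie close together, with Decr2, Pex11a, Cpt1a, Acot2 and Fgf21 furthest apart, and the open circles of Hadhb and Acot1 are hidden under the filled ones.

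The members furthest from 0 had different roles. Decr2, the peroxisomal reductase that removes double bonds at even positions, had an intensity of 432 on the congenic array against 712 on the control array, a log2 difference of -0.71. It was the lowest member, and 3.35% of expressed genes lay as low or lower. Pex11a, which promotes the division of peroxisomes, stood at 1026 on the congenic against 1397 on the control array (log2 difference -0.44), and its second probe set at 689.9 against 918 (-0.41). Both probe sets of Pex11a were thus lower in the congenic array by nearly the same amount, although the difference did not reach 1.5-fold, and 8.70% of expressed genes lay as low or lower.

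On the other side, Fgf21, a hormone that the liver secretes in fasting and under protein or stress signals, stood at 134.7 on the congenic against 71.6 on the control array (log2 difference 0.87). Among expressed genes 2.97% lay as high or higher. Like Decr2, Fgf21 had 1 probe set here, so no second reading of it was available. Cpt1a, the carnitine palmitoyltransferase at the entry to mitochondria and a main point of control, had 3 probe sets, and all of them were brighter on the congenic array. The brightest read 2070.4 against 1543 (log2 difference 0.42), the next 1961 against 1375 (0.51) and the last 1888 against 1605 (0.23). The higher level on the congenic array was therefore present in every Cpt1a probe set, but below 1.5-fold in each, and 13.0% of expressed genes lay as high or higher. The brightest and the next are _x_at probe sets. The last is the only plain _at probe set of Cpt1a, and its 0.23 lay within the SD of 0.25 of bright genes.

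Because Decr2, Pex11a, Cpt1a and Fgf21 had the 4 largest differences, the 250 bases before their annotated starts are shown, read 5′ to 3′ in the direction of the gene, from RefSeq on GRCm38.p6. They lie at chr17:26090165-26090414 (minus strand), chr7:79743132-79743381 (minus strand), chr19:3323051-3323300 (plus strand) and chr7:45615491-45615740 (minus strand). Capitals mark matches, on either strand, to the nuclear receptor core AGGTCA, the E-box CACGTG, the C/EBP-ATF composite core TGATGCAA, the TATA box TATAAA and the GC box GGGCGG.
Decr2: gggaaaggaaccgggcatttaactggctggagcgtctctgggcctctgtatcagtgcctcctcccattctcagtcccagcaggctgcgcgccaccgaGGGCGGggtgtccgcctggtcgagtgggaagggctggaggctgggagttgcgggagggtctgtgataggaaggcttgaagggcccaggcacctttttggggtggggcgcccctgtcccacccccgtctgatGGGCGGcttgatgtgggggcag
Pex11a: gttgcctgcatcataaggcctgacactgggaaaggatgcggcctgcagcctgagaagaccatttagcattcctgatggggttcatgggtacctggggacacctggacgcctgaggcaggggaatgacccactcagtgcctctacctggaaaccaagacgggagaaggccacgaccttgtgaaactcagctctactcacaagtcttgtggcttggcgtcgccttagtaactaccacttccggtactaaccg
Cpt1a: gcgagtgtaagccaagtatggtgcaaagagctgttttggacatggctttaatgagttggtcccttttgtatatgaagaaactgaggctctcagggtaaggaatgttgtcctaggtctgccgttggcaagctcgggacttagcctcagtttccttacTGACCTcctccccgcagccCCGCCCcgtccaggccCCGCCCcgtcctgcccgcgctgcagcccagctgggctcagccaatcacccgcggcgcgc
Fgf21: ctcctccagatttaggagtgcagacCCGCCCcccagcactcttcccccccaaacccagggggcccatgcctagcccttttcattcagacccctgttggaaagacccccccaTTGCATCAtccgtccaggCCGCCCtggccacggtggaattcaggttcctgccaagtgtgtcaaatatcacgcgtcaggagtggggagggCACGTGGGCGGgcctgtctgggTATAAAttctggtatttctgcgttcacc

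The Fgf21 window held the most kinds of match of these 4. It has the composite core, the motif read by ATF4 and related factors, as TTGCATCA at 139 to 132 bases before the start. It also has an E-box at 50 to 45 bases, which overlaps a GC box by 1 base, and a TATA box at 28 to 23 bases. The Cpt1a window has 1 receptor core, read as TGACCT, and 2 GC boxes. The Decr2 window has 2 GC boxes, and none of the letters searched occur in that of Pex11a. A promoter table entry was found for 26 of the 30 members. The receptor core was in 5 of these 26 (Acadm, Acadvl, Acot4, Cd36 and Cpt1a) and in 14.0% of 32851 mouse promoters of this length. An exact pair of such cores with 1 base between them, AGGTCANAGGTCA, was in 0 of the 26 and in 0.0335% of all promoters. Only these exact letters were searched, and only within these windows. Whether the members have PPAR alpha elements with other letters or at other places was therefore not tested. The E-box was in 2 members (Acot4 and Fgf21) and 6.02% of promoters, the composite core in Fgf21 alone and 0.791%, the TATA box in 2 (Acot4 and Fgf21) and 12.4%, and the GC box in 16 and 32.7%. The motifs were chosen with the differences known, and a match is a description of the letters, not a bound site.

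**Figure D2:**
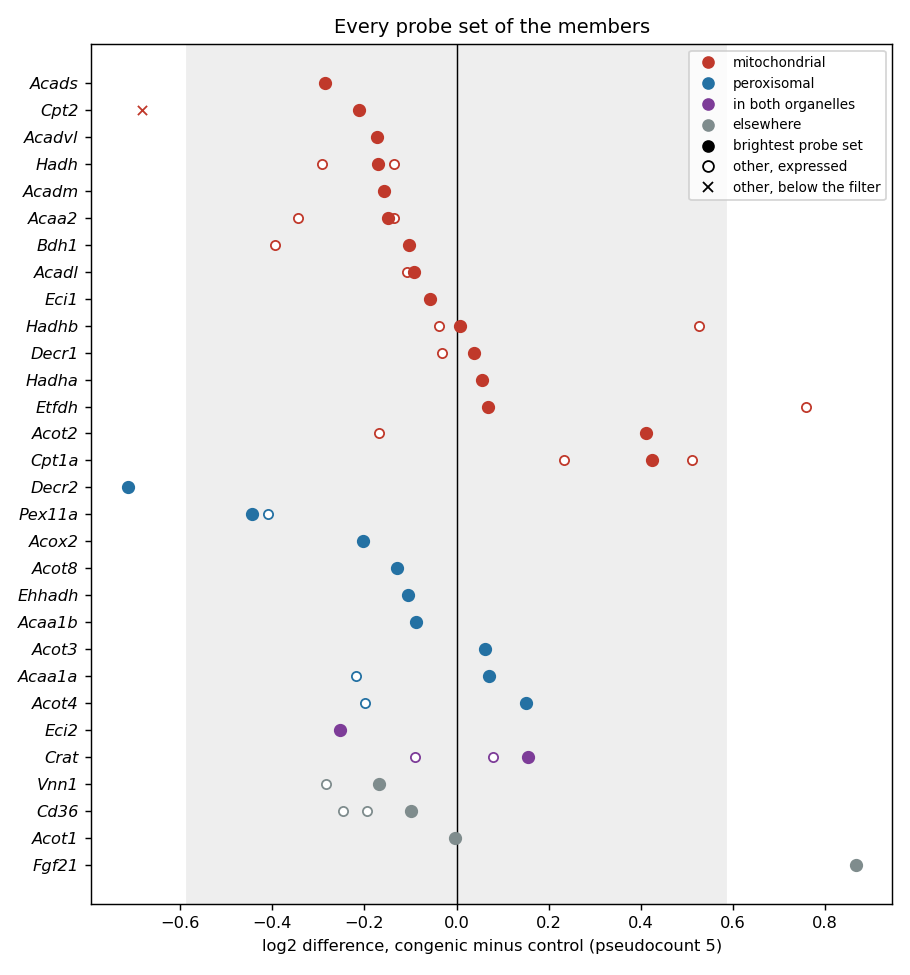
Difference between the arrays (x axis, log2, congenic minus control) for every probe set of the members, with the brightest of each gene filled, the others open and the 1 probe set below the filter as a cross. The grey band spans 1.5-fold in either direction. All 3 probe sets of Cpt1a lie right of 0 and both of Pex11a left of it, while those of Acot2 lie on both sides.

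Fatty acid uptake and the carnitine shuttle did not move as a unit. Cd36, the fatty acid translocase of the cell surface, stood at 1736 on the congenic against 1860.3 on the control array (log2 difference -0.10), and its 3 probe sets were all lower, between -0.25 and -0.10. CD36 is also made by macrophages, endothelium and adipocytes, and several of these markers differed between the arrays. Macrophage markers summed to an intensity of 34960.0 against 23450.0, with 8 of 12 higher by 1.5-fold and 0 lower. Endothelial markers summed to 3111 against 2807, with 0 of 6 higher by 1.5-fold and 1 lower (Lyve1, at 467 against 733). All the others were higher by smaller amounts, Cdh5 (0.53), Kdr (0.51), Stab2 (0.36), Pecam1 (0.31) and Clec4g (0.18). The dimmer expressed probe set of Cdh5 differed by 1.16. The 4 adipocyte markers found summed to 1157 against 978, nearly all of it from Fabp4 at 1127 against 938. Of these 4, 0 were higher by 1.5-fold and 1 was lower (Retn, at 5.17 against 17.7). Retn and Lep were below the filter, with Lep at the repeated low value of 1 on the control array. The part of these cell types in the Cd36 value was not tested. Cpt2, which returns the acyl group from carnitine to coenzyme A inside the mitochondrion, was at 1176 against 1362 (-0.21), opposite in sign to Cpt1a, and its second probe set was below the filter at 6.92 against 14.1. Crat, the acetyltransferase of mitochondria and peroxisomes, was at 343 against 308 (0.15), with its other probe sets at 0.08 and -0.09.

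The 4 chain-length-specific acyl-CoA dehydrogenases, which carry out the first step of mitochondrial oxidation, were all lower in the congenic array by a small amount. Acadvl, for very long chains, stood at 2202 on the congenic against 2484 on the control array (log2 difference -0.17). Acadl, for long chains and the only member on chromosome 1, was at 3149 against 3360.4 (-0.09). Acadm, for medium chains, was at 5685 against 6345 (-0.16) and Acads, for short chains, at 725 against 885 (-0.29). Acads, with 1 probe set, differed most. It alone of the 4 exceeded 0.25, the SD of probe sets of bright genes around their gene's mean, but not the 0.34 over all genes. Etfdh, which hands the electrons of these enzymes to the respiratory chain, differed by 0.07 at 3257 against 3108. A dim second probe set of Etfdh, at 44.1 against 24.0, differed by 0.76.

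Genes of the later mitochondrial steps were level or slightly lower in the congenic array. Hadha and Hadhb, the neighbouring genes on chromosome 5 for the subunits of the trifunctional protein, differed by 0.05 (908 on the congenic against 874 on the control array) and 0.01 (4865 against 4839.8). A dim other probe set of Hadhb, at 22.2 against 13.9, differed by 0.53. Hadh, the hydroxyacyl-CoA dehydrogenase for shorter chains, was at 6391 against 7196 (-0.17), and its 3 probe sets lay between -0.29 and -0.14. Acaa2, the mitochondrial thiolase, was at 5683 against 6303 (-0.15), with 3 probe sets between -0.34 and -0.14. By their brightest probe sets Hadha, Hadhb, Hadh and Acaa2 all lay within 0.25 of 0. Every probe set of Hadh and Acaa2 was lower in the congenic array, by less than 1.5-fold. Probe sets all in 1 direction were found for 52.4% of genes with several expressed ones.

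Of the 4 enzymes that prepare unsaturated fatty acids, 3 were lower in the congenic array. The mitochondrial reductase Decr1 stood at 2710 on the congenic against 2639 on the control array (log2 difference 0.04) and the mitochondrial isomerase Eci1 at 2726 against 2838 (-0.06). Eci2, an isomerase found in both organelles, was at 2661 against 3172 (-0.25), and the peroxisomal Decr2 was the lowest member. Bdh1, which interconverts the ketone bodies acetoacetate and 3-hydroxybutyrate, was at 2372 against 2549 (-0.10), and its dimmer probe set at 142.9 against 189 (-0.39). Bdh1 was the only ketogenic enzyme among the members.

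The remaining peroxisomal genes lay nearer 0 than Decr2 and Pex11a. Acox2, the oxidase of branched chains and bile acid precursors, stood at 1696 on the congenic against 1952 on the control array (log2 difference -0.20). Ehhadh, the bifunctional enzyme that is a classical PPAR alpha target, was at 5645 against 6070.4 (-0.10). The thiolases Acaa1a and Acaa1b were at 1711 against 1630.2 (0.07) and at 10641 against 11303 (-0.09). These 2 thiolase genes on chromosome 9 are close relatives, and a dim probe set of Acaa1a differed by -0.22, so the values of either are uncertain.

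The acyl-CoA thioesterases, which release free fatty acids from coenzyme A, showed no common direction. Acot1 (cytosol) stood at 2590 on the congenic against 2594 on the control array (log2 difference 0.00), Acot3 (peroxisome) at 1074 against 1029.8 (0.06) and Acot8 (peroxisome) at 355 against 389 (-0.13). Acot2, of the mitochondrial matrix, gave 0.41 with its brighter probe set (624 against 468) and -0.17 with the dimmer one (231 against 261). Acot4, of the peroxisome, gave 0.15 (336 against 303) and -0.20 (122 against 140.7). Acot1 to Acot4 lie close together on chromosome 12 and are similar in sequence. Over the whole list of members, 3 probe sets that name a member together with another gene were left out. Vnn1, the pantetheinase that responds to PPAR alpha, was at 2020 against 2270 (-0.17), and its second probe set differed by -0.28.

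Pex11a, Cpt1a and 7 other members were read in 1 direction by all their expressed probe sets. Of 15 members with several expressed probe sets, 7 had all of them lower (Acadl, Hadh, Acaa2, Bdh1, Pex11a, Vnn1 and Cd36) and 2 all higher (Cpt1a and Etfdh), together 9 of 15. Over all genes with several expressed probe sets, 52.4% had them in 1 direction. The other 6 were mixed (Hadhb, Acot2, Decr1, Acaa1a, Acot4 and Crat). These probe sets read the same 2 arrays and are no replicates.

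**Figure D3:**
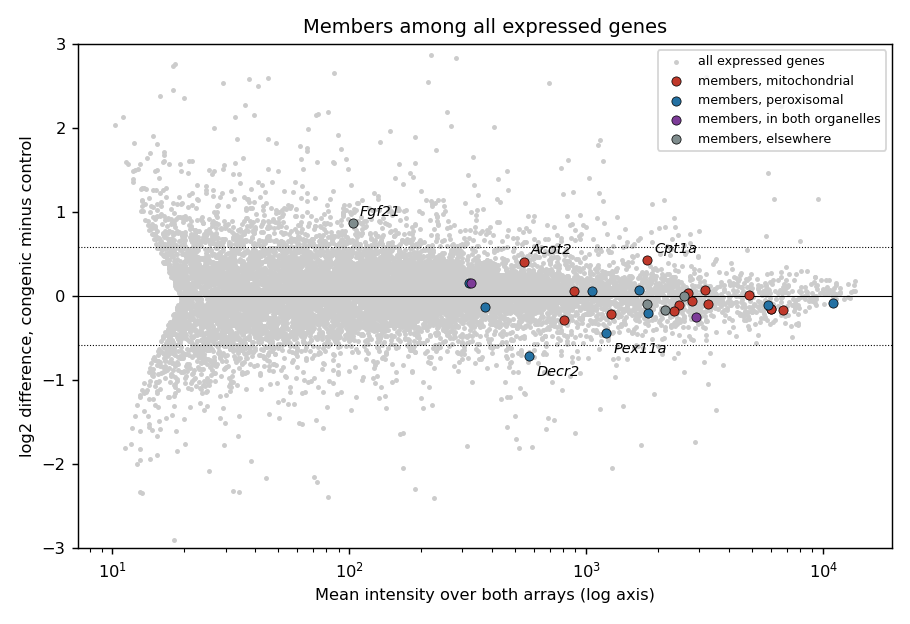
Difference between the arrays (y axis, log2, congenic minus control) against the mean intensity (x axis, log scale) of all 12613 expressed genes (grey) and the members (coloured by compartment). Dotted lines mark 1.5-fold and 7 genes lie beyond the y axis. Most members are bright and lie inside the cloud just below 0, with Decr2 below and Fgf21 above the dotted lines.

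Mitochondrial and peroxisomal members had nearly the same median. The 15 mitochondrial members had a median difference of -0.09, from -0.29 for Acads to 0.42 for Cpt1a, with 9 lower and 6 higher and none past 1.5-fold. The 9 peroxisomal members had a median of -0.10, from -0.71 for Decr2 to 0.15 for Acot4, with 6 lower, 3 higher and 1 past 1.5-fold. The peroxisomal median minus the mitochondrial one was -0.01, and with genes as the only points there is no test of it. With quantile normalization of the arrays it was -0.0813, from medians of -0.14 and -0.06. The groups overlapped over most of their range, and only Decr2 and Pex11a lay below the lowest mitochondrial member.

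A wider list of other genes of both organelles, called other pathway genes here, had its medians in the opposite order. It reaches beyond fatty acid oxidation and was not matched to the members. Its mitochondrial part includes genes of amino acid and propionate breakdown, such as Ivd and Pcca. Its peroxisomal part includes genes of peroxisome assembly, such as Pex5, and of other peroxisomal routes, such as Cat and Hao1. The 24 mitochondrial genes had a median of -0.23, with 19 lower and 5 higher. The 30 peroxisomal genes had a median of -0.09, with 23 lower and 7 higher. By 1.5-fold or more, 0 of the 24 and 2 of the 30 were lower, where 5.26% of expressed genes were, so neither count stands out from that share. Abcd2, a peroxisomal transporter of very long acyl-CoA, stood at 87.8 on the congenic against 174 on the control array (log2 difference -0.95), with all 3 expressed probe sets lower, and Hao1, the peroxisomal glycolate oxidase, at 963 against 1623 (-0.75). The lowest mitochondrial gene was Hsd17b10, a dehydrogenase of isoleucine and fatty acid breakdown, at 2106 against 3046 (-0.53). The highest was Pdk4, the kinase that restrains pyruvate oxidation when fat is burned, at 259 against 179 (0.52).

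**Figure D4:**
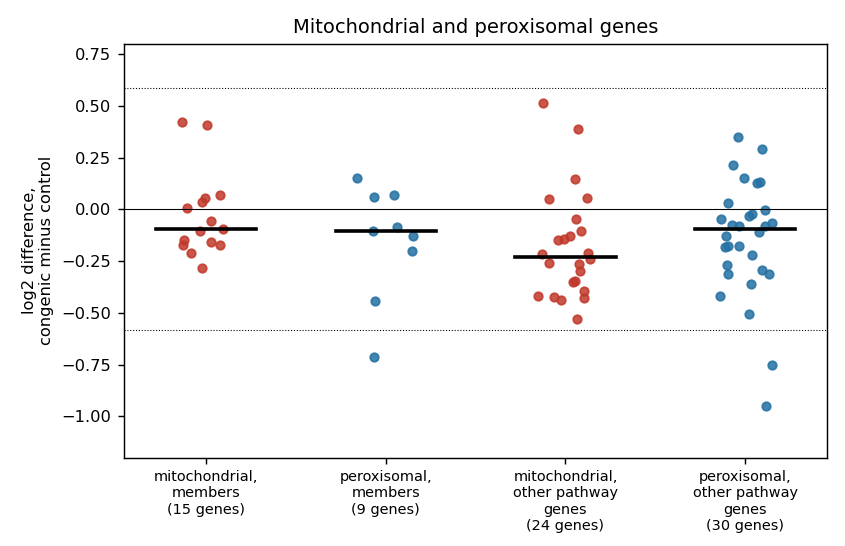
Differences between the arrays (y axis, log2, congenic minus control) of mitochondrial and peroxisomal genes, for the members and for the wider list of other pathway genes. Each point is 1 gene and the black bars are medians. The medians of the members are -0.09 and -0.10, those of the other genes -0.23 and -0.09, and dotted lines mark 1.5-fold.

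Regulators and lipid-handling genes around the members spread in both directions. Of 32 expressed genes of this kind the median was -0.08, with 22 lower and 10 higher (68.8% lower, against 43.8% of expressed genes). By 1.5-fold or more 1 was lower and 3 were higher, close to the 5.26% and 7.59% of expressed genes. Ppara, which encodes PPAR alpha, stood at 882 on the congenic against 1373 on the control array (log2 difference -0.63), with 3 probe sets from -0.63 to -0.45. Ppargc1a, its coactivator, was at 160.1 against 176 (-0.14), with probe sets on both sides of 0. Genes known as PPAR alpha targets were found on both sides of 0. Examples lower in the congenic array were Pex11a (-0.44), Vnn1 (-0.17), Acadm (-0.16) and Ehhadh (-0.10). Examples higher were Fgf21 (0.87), Pdk4 (0.52) and Cpt1a (0.42). These are not a full set of targets, and a part of Ppara in their values was not tested. G0s2, an inhibitor of triglyceride lipase, had the highest difference of these neighbours at 2586 against 1204 (1.10). It has 1 probe set and lies on chromosome 1, as Bglu3 does, and a part of the donor segment in its value was not tested. Next were Lipe, the hormone-sensitive lipase, which was dim at 49.4 against 30.1 (0.63), and Txnip, a glucose-responsive gene, at 1562 against 1029.98 (0.60).

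Some markers of immune cells were further from 0 than any member, up to a log2 difference of 3.78 for Camp of neutrophil granules. On the control array Camp (6.35), Ltf (9.1), Mpo (9.28) and Prtn3 (16.6) were below the array median of 19.7, so the sizes of their differences are uncertain. The other neutrophil markers were above it. The 8 hepatocyte markers found were all expressed and, by their brightest probe sets, within 1.5-fold. They summed to 62690.0 on the congenic array against 61330.0. Most of this sum came from Alb, Ttr and Apoa1, which stood near the highest intensity of each array (14440 and 13395). All 4 probe sets of Hnf4a were lower in the congenic array, from -0.59 to -0.26. All 4 of Apoa1 were higher, from 0.06 to 0.15, and 1 of the 2 of Apob was higher at 0.64. Neutrophil markers summed to 4157 against 1266, with 7 of 8 higher by 1.5-fold, and lymphocyte markers to 1122 against 277, with 7 of 9 higher, though Cd4 and Cd79a among these 7 were below the filter, as was Cd3e, which was lower. Skeletal muscle markers, whose tissue also burns fat, were dim at 122.5 against 149.4, with Ckm, Tnnt3, Myh4 and Mb below the filter and Mb at the repeated low value of 1 on the control array. In whole liver RNA a different share of a cell type and a different RNA level per cell cannot be told apart. The part of these cell types in the members' values was not tested.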

How the data were processed

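The authors deposited linear intensities, 1 for every probe set of 2 Affymetrix arrays, made, per the labels' protocols, from biotinylated cRNA of 8 µg liver RNA. Not given in the sources used here are the summary of probes and the scaling between arrays. Array medians differed by -0.03 (log2), under the limit of 0.1 for rescaling. The value 1 recurs in 1677 probe sets of the congenic and 1634 of the control array and was treated as a repeated low value. The number of arrays limits the precision.

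Of 45101 probe sets, 64 controls were left out, 34945 had 1 symbol, 932 several and 9160 none. Symbols were updated through gene IDs to GRCm38.p6 (34741 matched), which also gave chromosomes. Each gene was represented by its brightest probe set, and differences used a pseudocount of 5, which understates differences of dim genes. Compartments follow the main known site of each protein. Named genes are all members, Ppara, Ppargc1a and the 4 highest and 4 lowest other pathway genes, and the other pathway genes named in the closing section were chosen after their values were seen. Members, lists and motifs were chosen with earlier results of these data known. Alternatives were 3 scalings, other pseudocounts, probe set rules, expression filters and a 2-fold size. Scripts used Python 3.11.15, pandas 2.3.3 and statsmodels 0.14.6 and were tested on simulated data.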

Additional observations from a re-analysis of the deposited data

How the results depend on the processing

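No paired analysis was possible because each group has 1 array. Decr2 stayed past 1.5-fold on the lower side and Fgf21 on the higher side under all 10 alternatives of scaling, pseudocount, probe set and filter, and neither passed 2-fold (0 and 0 members). Each has 1 plain _at probe set that passed every filter, so the probe set and filter alternatives could not change its value. Only the scalings and pseudocounts could do so. The members' median ranged from -0.10 to -0.07 and the number lower from 18 to 21. With quantile normalization the peroxisomal median minus the mitochondrial one was -0.0813, and with plain _at probe sets only the difference among other pathway genes was 0.0801. Under that last rule Cpt1a was at 0.23, against 0.42 with its brightest probe set. The sign changed for 4 members near 0 or with probe sets that disagree, Hadhb, Acot1, Acaa1a and Acot4, and Etfdh differed by 0.41 with the median of its probe sets. The other 26 kept their sign under every alternative that gave them a value. The filters changed no member's value, and the median over probe sets could not change that of the 15 members with 1 expressed probe set. With no replicates, no setting measures the spread between animals.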

Other observations

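Of the 24 mitochondrial genes of the wider list outside the members, 19 (79.2%) were lower in the congenic array at any size, against 43.8% of expressed genes. Those that break down branched-chain amino acids and propionate are described here as single genes, chosen after their values were seen. The propionyl-CoA carboxylase genes Pcca and Pccb stood at 652 on the congenic against 879 on the control array (log2 difference -0.43) and at 541 against 734 (-0.44). Hibch, of valine breakdown and on chromosome 1, was at 585 against 770 (-0.39). Ivd, of leucine breakdown, was at 655 against 808 (-0.30), and Echs1, the short-chain hydratase shared with fatty acid oxidation, at 1512 against 2020 (-0.42). Of the same routes Acadsb differed by -0.26, Acad8 by -0.15 and Mcee by -0.05. By their brightest probe sets none of these genes reached 1.5-fold. The dimmer of the 2 expressed probe sets did so for Hibch (-0.625) and Ivd (-0.617). The electron transfer genes Etfa and Etfb, which serve both routes, differed by -0.14 and -0.10.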
